A study of Mus musculus with 24 samples.

Results

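The 10 genes described here, Dcn, Lum, Col1a1, Col1a2, Col3a1, Igf2, Igfbp2, Ptgds, Slc22a6 and Slc6a13, are genes of fibroblasts and of the meninges, the membranes around the brain. They were chosen by symbol from the 49568 gene symbols counted in each library, and all 10 were among the 20187 genes that passed the filter on low counts. RNA was sequenced from the hippocampus of individual aged male mice on a C57-Bl/6J background, with 24 libraries in 4 groups of 6. The groups were WT mice in standard housing (WTSH), WT mice in an enriched environment (WTEE), MSK1 KD mice in standard housing (KDSH) and MSK1 KD mice in an enriched environment (KDEE). MSK1 is a kinase of the nucleus that phosphorylates CREB and histone H3, and kinase dead (KD) mice are homozygous for a point mutation in the MSK1 gene (Rps6ka5) that inactivates its N-terminal kinase domain in every cell of the body.

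Enrichment began at 18 months of age and RNA was prepared at 21 to 23 months. Enriched housing offered more floor space, running and climbing, and objects that were changed over time, and standard housing offered bedding and a tube. WT and KD mice were bred as separate lines, so genotype and line cannot be told apart, and males were caged in groups, without a record here of which mice shared a cage. The comparisons asked whether enrichment and MSK1 changed hippocampal gene expression. Samples 4 and 7 of WTSH and 6 of KDSH had been set aside for ribosomal RNA and a low correlation with their group, and are shown apart. The comparisons rest on 4 WTSH, 6 WTEE, 5 KDSH and 6 KDEE libraries, 1 mouse each.

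Fibroblasts of the meninges and of vessel sheaths make the collagen and proteoglycan fibres of these membranes, and the arachnoid forms a barrier between blood and cerebrospinal fluid that is rich in transporters. The choroid plexus, which secretes cerebrospinal fluid into the ventricles and whose epithelium is the main source of transthyretin (Ttr) in the brain, has a stroma of fibroblasts and lies next to the hippocampus. The surface of the hippocampus is covered by pia. Fewer cells of a type and less RNA per cell cannot be told apart in bulk RNA.

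The matrix genes are Dcn and Lum, which encode the small leucine-rich proteoglycans decorin and lumican, and Col1a1, Col1a2 and Col3a1, which encode the chains of collagens I and III. Igf2 encodes insulin-like growth factor 2, an imprinted gene whose product is secreted into the cerebrospinal fluid, and Igfbp2 encodes a protein that binds insulin-like growth factors. Ptgds encodes prostaglandin D2 synthase (beta-trace), made by the arachnoid, the choroid plexus and oligodendrocytes. Slc22a6 encodes organic anion transporter 1, and Slc6a13 encodes the GABA transporter GAT2 of the meninges.

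All 10 lie on autosomes (GRCm38, GENCODE M21). Dcn (ENSMUSG00000019929, chr10:97479609-97518143) and Lum (ENSMUSG00000036446, chr10:97565128-97572703) are neighbours on the plus strand, 46984 bases apart. Col1a1 (ENSMUSG00000001506, chr11:94936224-94953042), Col1a2 (ENSMUSG00000029661, chr6:4504814-4541544) and Col3a1 (ENSMUSG00000026043, chr1:45311538-45349706) each have many exons, 52, 48 and 50 blocks after merging transcripts. Igf2 (ENSMUSG00000048583, chr7:142650766-142666816) and Ptgds (ENSMUSG00000015090, chr2:25466709-25470046) are on the minus strand. Igfbp2 (ENSMUSG00000039323, chr1:72824503-72852474), Slc22a6 (ENSMUSG00000024650, chr19:8618039-8628299) and Slc6a13 (ENSMUSG00000030108, chr6:121300227-121337733) are on the plus strand. Counting ignored strand, and 98 exon bases of Igf2 (1.71%) overlap its antisense gene Igf2os, so a small share of its reads cannot be assigned to one strand. In GENCODE M21 a second protein-coding model, Gm49394, shares 62.8% of the exon bases of Igf2, and it was not used here.

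Sequence upstream of the genes is shown as background, and whether it bears on their levels was not tested. RefSeq windows were at hand for 7 of the 10 genes, and the 250 bases before the start are printed for a collagen, a growth factor binding protein and a transporter whose windows held no annotated exon (GRCm38.p6, 5′ to 3′ on the strand of the gene). Capitals mark matches on either strand to the TATA box core TATAAA, the GC box core GGGCGG bound by Sp factors, the CCAAT box, the SMAD site core CAGAC and the forkhead site core TAAACA.
Col3a1 promoter, chr1:45311288-45311537, plus strand: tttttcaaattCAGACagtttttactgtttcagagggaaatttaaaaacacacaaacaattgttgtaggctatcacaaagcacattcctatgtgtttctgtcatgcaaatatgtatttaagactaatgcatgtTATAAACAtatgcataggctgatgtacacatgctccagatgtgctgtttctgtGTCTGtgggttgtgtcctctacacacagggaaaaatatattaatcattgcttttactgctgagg
Igfbp2 promoter, chr1:72824230-72824479, plus strand: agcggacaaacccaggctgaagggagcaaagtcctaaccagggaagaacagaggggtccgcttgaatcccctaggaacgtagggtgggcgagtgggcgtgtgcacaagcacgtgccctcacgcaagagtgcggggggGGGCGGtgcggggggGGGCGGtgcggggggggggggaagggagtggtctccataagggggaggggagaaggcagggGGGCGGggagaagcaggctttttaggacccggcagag
Slc22a6 promoter, chr19:8617746-8617995, plus strand: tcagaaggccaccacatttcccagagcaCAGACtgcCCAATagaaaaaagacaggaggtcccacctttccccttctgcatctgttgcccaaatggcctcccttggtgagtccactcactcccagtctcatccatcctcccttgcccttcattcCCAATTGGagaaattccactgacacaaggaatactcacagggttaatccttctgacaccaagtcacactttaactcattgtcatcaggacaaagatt

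Over all 32851 windows of this length, TATAAA was found in 12.4%, GGGCGG in 32.7%, CCAAT in 33.9%, CAGAC in 42.2% and TAAACA in 12.03%. The Col3a1 window held 2 matches to CAGAC and 1 each to the TATA box and forkhead cores, which overlap each other. The Igfbp2 window held 3 matches to GGGCGG, and the Slc22a6 window held 3 to CCAAT, of which a pair overlaps, and 1 to CAGAC. No motif was shared by all 3 windows. The Igf2 window examined, the most upstream of 4, also held no annotated exon and is not printed, and it had no match to any of these motifs. The base composition also differed, with 35.2% G and C before Col3a1, 67.2% before Igfbp2 and 48.4% before Slc22a6.

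Levels are given as CPM, the count of a gene relative to all counts on genes in its library, after TMM normalization, which rescales libraries to a common bulk of genes. Counts on genes ranged from 27410239 to 71907130 over the 21 libraries, and the lowest of all 24 was 15800187. The lowest count of any of the 10 genes in a kept library was 33, for Col3a1, and the highest was 88523, for Ptgds. Rps6ka5 lay between 13.8 and 25.2 CPM, lowest in WTEE sample 10, and its level does not check the genotype because the mutation leaves the transcript in place. Markers of hippocampal neurons were present throughout, with a summed level of 6 markers between 2712 CPM in WTEE sample 10 and 5721 CPM. The 4 gene models that collect ribosomal and other structural RNA held 22.7% of counts in WTSH sample 4, 22.5% in WTSH sample 7 and 5.46% in KDSH sample 6, against 0.0329% to 2.48% in the kept libraries.

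Per kilobase of exon, Ptgds was by far the most abundant of the 10 genes, at 226 ± 210 CPM per kb (SD, n = 21), followed by Igfbp2 at 24.2 ± 23.7 and Igf2 at 12.91 ± 15.04. Dcn stood at 8.60 ± 1.54 CPM per kb, Slc6a13 at 2.67 ± 1.78, Lum at 1.32 ± 0.456 and Col1a1 at 1.07 ± 0.322. Slc22a6 at 0.910 ± 0.531, Col1a2 at 0.667 ± 0.347 and Col3a1 at 0.140 ± 0.0817 CPM per kb were the least abundant. The ranges of mean ± SD of neighbours in this order overlapped from Igfbp2 to Dcn and from Lum to Col1a2. That SD is the spread between libraries, and the genes were not compared within each library, so a constant order there is not excluded. By the median Dcn (8.25) came before Igf2 (5.86).

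The genes differed most in how much they varied between mice. Igf2 varied most, 16.9-fold between its lowest and highest library, with an SD of 1.19 on the log2 CPM scale that exceeds that of 99.0% of the genes tested. Ptgds followed with a 13.2-fold range, and Igfbp2 with 8.22-fold. Slc6a13, Slc22a6, Col1a2 and Col3a1 spanned 5.54-fold to 6.56-fold, and each had a larger SD than at least 91.0% of the genes tested. Dcn was the steadiest, at 2.29-fold and an SD of 0.24, close to the median SD of 0.21 over all genes tested, and Lum and Col1a1 spanned 3.04-fold and 2.81-fold.

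A pair of libraries held every maximum. WTEE sample 10 was the highest of the 21 libraries for 6 of the 10 genes (Dcn, Lum, Col3a1, Ptgds, Slc22a6 and Slc6a13) and KDEE sample 12 for the other 4 (Col1a1, Col1a2, Igf2 and Igfbp2), and both were among the 5 highest libraries for all 10 genes. KDEE sample 14 was among the 5 highest for 9 genes and WTSH sample 19 for 6. At the other end, WTEE sample 17 was the lowest library for 6 of the genes and among the 5 lowest for all 10. For Dcn, Col3a1, Slc22a6 and Slc6a13 the WTEE group therefore held both extremes.

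**Figure D1:**
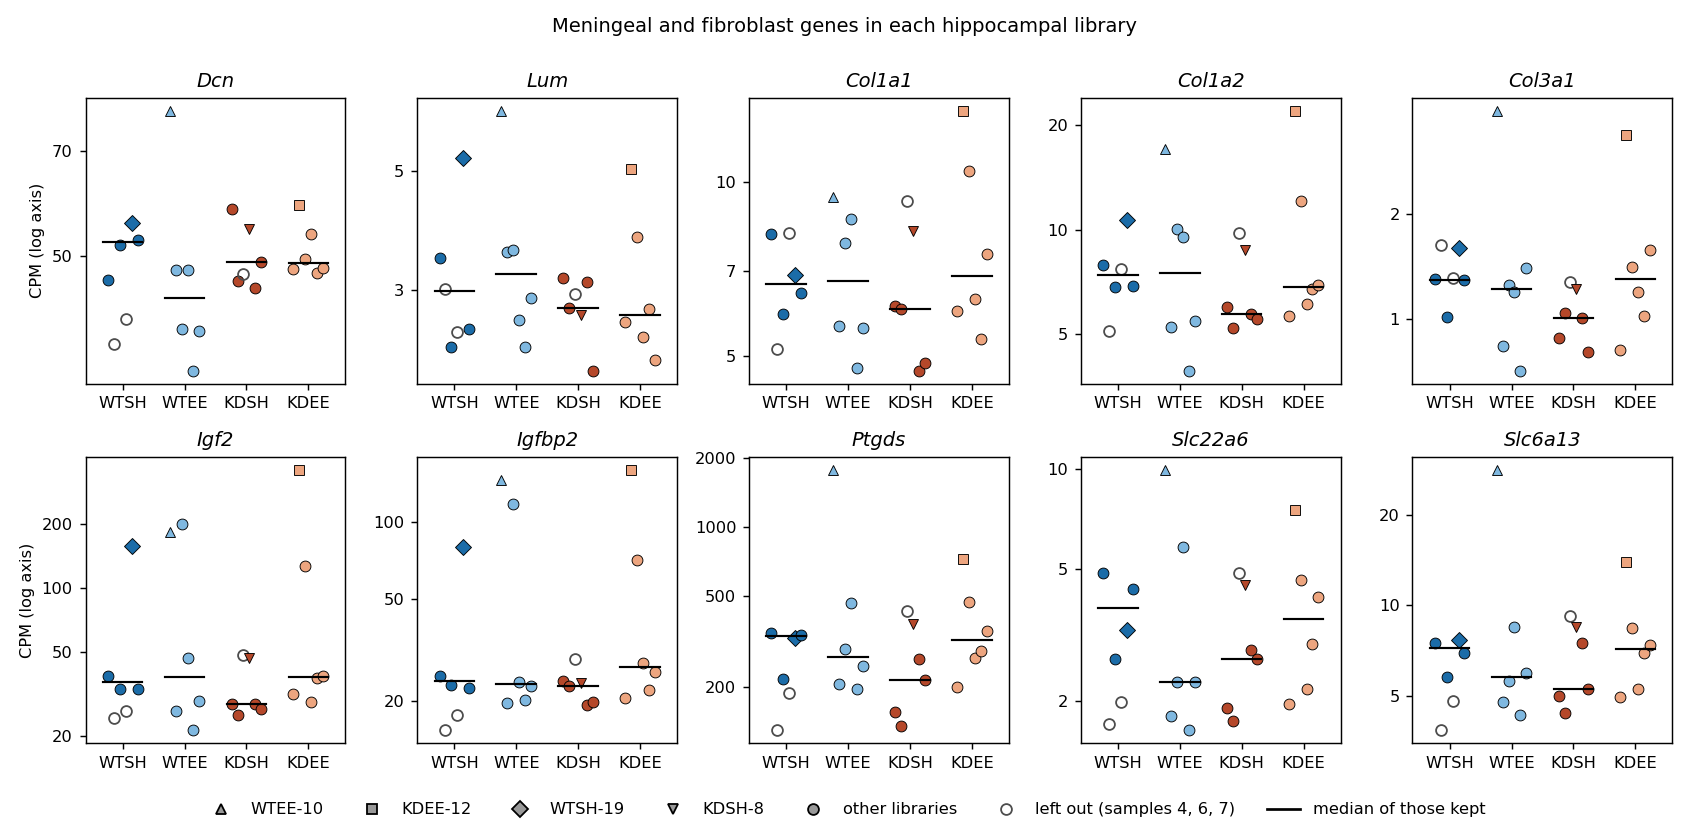
Level of each of the 10 genes (CPM, log axis) in each library by group, with filled symbols for the 21 kept libraries, the median of each group as a bar and hollow circles for WTSH samples 4 and 7 and KDSH sample 6, scaled with all 24 libraries. WTEE sample 10 (triangle) and KDEE sample 12 (square) hold the highest value of every gene among the kept libraries, and the groups overlap for all 10 genes.

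Ptgds, the most abundant of the genes, was at 216, 325, 338 and 344 CPM in the 4 WTSH libraries. It ran from 196 CPM through a median of 269 to 1774 CPM in WTEE, whose maximum was WTEE sample 10. In KDSH it was at 134, 156, 214, 264 and 375 CPM, and in KDEE it ran from 200 CPM through a median of 319 to 723 CPM. The 4 groups overlapped, and WTEE sample 10 stood far above the next WTEE library, at 464 CPM. That library also had the lowest summed level of hippocampal neuron markers, given above, a sum that is mostly Camk2a. Single markers disagreed there, with Camk2a (2313 CPM), Zbtb20 (90.1 CPM) and Prox1 (43.8 CPM) the lowest of the 21 libraries. Spink8 (24.5 CPM) was the highest, and C1ql2 was at 104.6 CPM against a median of 89.2 CPM. Neurod6 was at 136 CPM against a median of 148 CPM. The part of these markers in the values of this library was not tested.

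Igf2 was at 33.5, 33.6, 38.6 and 158 CPM in WTSH and ran from 21.4 through a median of 38.1 to 201 CPM in WTEE. In KDSH it was at 25.2, 27.0, 28.4, 28.4 and 46.7 CPM, and in KDEE it ran from 29.0 through a median of 38.2 to 361 CPM. The medians were 36.1 CPM in WTSH and 28.4 CPM in KDSH, where 4 of the 5 libraries lay below every WTSH library. The widest spread came from 5 libraries at 127 CPM or more (WTSH sample 19, WTEE samples 10 and 13 and KDEE samples 12 and 14), while the other 16 lay at 47.0 CPM or less.

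Igfbp2 showed the same 5 libraries. It was at 22.4, 23.0, 25.1 and 79.8 CPM in WTSH and at 19.4, 19.8, 22.8, 23.6 and 23.9 CPM in KDSH. It ran from 19.7 through a median of 23.3 to 146 CPM in WTEE and from 20.5 through a median of 27.2 to 159 CPM in KDEE. The 5 libraries were at 70.9 CPM or more and the other 16 at 28.3 CPM or less, and no KDSH library was among the 5.

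Slc6a13 was at 5.79, 6.94, 7.49 and 7.66 CPM in WTSH and at 4.38, 4.97, 5.25, 7.51 and 8.45 CPM in KDSH. It ran from 4.31 through a median of 5.76 to 28.3 CPM in WTEE and from 4.96 through a median of 7.13 to 13.95 CPM in KDEE. Slc22a6 was at 2.69, 3.28, 4.36 and 4.86 CPM in WTSH and at 1.74, 1.91, 2.69, 2.85 and 4.48 CPM in KDSH. It ran from 1.64 through a median of 2.29 to 9.94 CPM in WTEE and from 1.96 through a median of 3.56 to 7.56 CPM in KDEE. For both transporters WTEE sample 10 was highest and KDEE sample 12 second, and the groups overlapped.

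Among the matrix genes, Col1a2 was at 6.82, 6.88, 7.91 and 10.7 CPM in WTSH and at 5.23, 5.52, 5.73, 6.002 and 8.74 CPM in KDSH. It ran from 3.93 through a median of 7.499 to 17.03 CPM in WTEE and from 5.64 through a median of 6.83 to 21.9 CPM in KDEE. Col1a1 lay between 4.72 and 13.3 CPM, Col3a1 between 0.712 and 3.95 CPM and Lum between 2.13 and 6.47 CPM over the 21 libraries. Dcn lay between 34.7 and 79.5 CPM, with group means of 51.6 ± 3.88 in WTSH (SD, n = 4), 48.2 ± 16.2 in WTEE (n = 6), 50.6 ± 5.55 in KDSH (n = 5) and 51.0 ± 4.51 in KDEE (n = 6).

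The 3 libraries that were left out went in opposite directions. With all 24 libraries scaled together, KDSH sample 6 was above every kept KDSH library for 8 of the 10 genes and within their range for the other 2, with Ptgds at 429 CPM and Igf2 at 48.2 CPM. WTSH sample 4 was below every kept WTSH library for 8 genes and WTSH sample 7 for 6, with Ptgds at 129 and 188 CPM and Igf2 at 24.4 and 26.3 CPM. Ttr was within the range of the kept libraries in all 3, at 29.0, 51.4 and 9.40 CPM. The share of structural RNA given above was raised in all 3, more in WTSH samples 4 (22.7%) and 7 (22.5%) than in KDSH sample 6 (5.46%). Its part in the values was not tested.

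None of the genes was called in any comparison between groups. A call required a Benjamini-Hochberg adjusted p under 0.05 over all genes tested in edgeR's quasi-likelihood test and an absolute log2 fold change over 0.38, and by this rule 0 of 20187 genes (0%) were called in each of the 5 comparisons. Group ranges did not separate either: the number of the 10 genes whose groups did not overlap was 0 in each of the 4 comparisons between groups, against 0.986% of all genes tested for WTEE against WTSH, 1.84% for KDEE against KDSH, 0.644% for KDSH against WTSH and 0.624% for WTEE against KDEE. DESeq2's Wald test called 0 of the 10 genes in every comparison, with 2, 14, 0, 118 and 20 calls over all genes for WTEE against WTSH, KDEE against KDSH, KDSH against WTSH, WTEE against KDEE and the interaction.

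With enrichment in MSK1 KD mice (KDEE against KDSH), all 10 genes had a positive fold change, from 0.01 for Dcn to 1.74 for Igf2, with a median log2 fold change of 0.58 against 0.00 over all genes tested. At an unadjusted p under 0.05, 2 of the 10 genes passed in edgeR's model across all genes (3 in DESeq2, with Col1a1), Igf2 (log2 fold change 1.74, SE 0.73, adjusted p = 0.397) and Igfbp2 (1.32, SE 0.62, adjusted p = 0.423), beside 11.6% of all genes tested. The exact two-sided permutation test gave p = 0.177 for Igf2 and p = 0.149 for Igfbp2. Ttr also ran higher in KDEE (63.0 to 9045 CPM, 2492 CPM or more in samples 12 and 14) than in KDSH (4.84 to 74.6 CPM). In these mice Ttr and housing thus cannot be fully told apart, and the part of each was not tested. With log2 CPM of Ttr as a covariate the log2 fold change of Igf2 was -0.42 (SE 0.36, adjusted p = 0.9997). That of Igfbp2 was then -0.39 (SE 0.27, adjusted p = 0.9997). Without KDEE sample 12, and without that covariate, the values were 0.76 for Igf2 and 0.62 for Igfbp2.

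With enrichment in WT mice (WTEE against WTSH), 9 of the 10 genes had a positive fold change, with a median of 0.17 against 0.01 over all genes tested, and 0 of the 10 passed an unadjusted p under 0.05, beside 6.55% of all genes. Ptgds had the largest, a log2 fold change of 0.79 (SE 0.53, adjusted p = 0.651), and this value rested on WTEE sample 10, since it was -0.12 (SE 0.33) without that library. The difference between both effects of enrichment (the interaction) ran from -1.38 for Igf2 (SE 1.02, adjusted p = 0.9999) to 0.10 for Slc6a13, and 0 of the 10 genes passed an unadjusted p under 0.05, beside 3.26% of all genes.

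**Figure D2:**
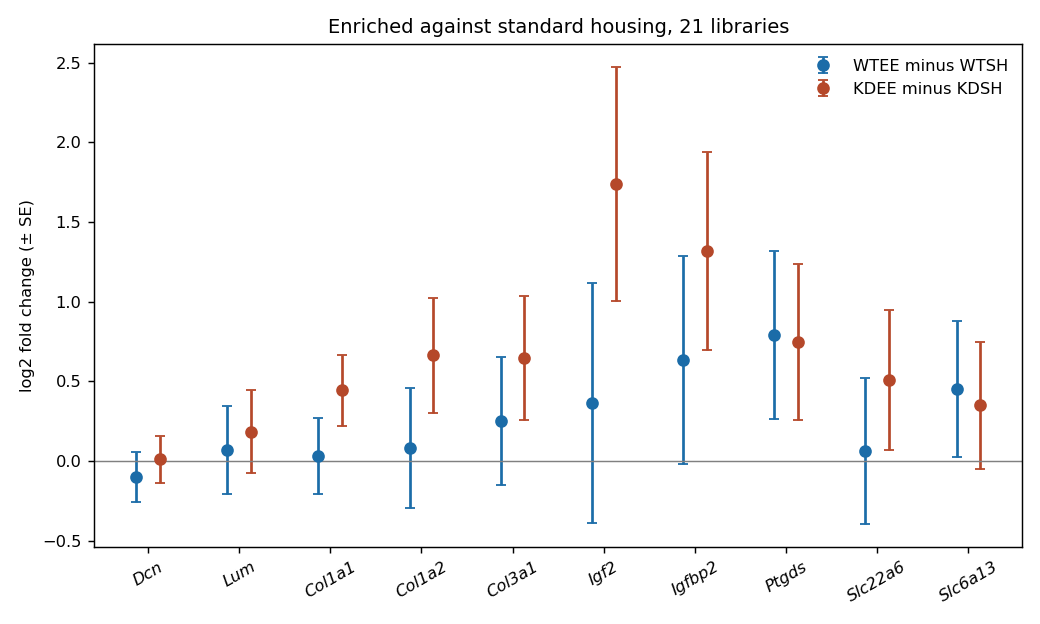
Log2 fold change of each gene with enrichment (± SE, edgeR) in WT mice (WTEE minus WTSH) and in MSK1 KD mice (KDEE minus KDSH). Igf2 and Igfbp2 have the largest values in MSK1 KD mice, 1.74 and 1.32, with standard errors of 0.73 and 0.62, and none of the values was called.

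Between genotypes in standard housing (KDSH against WTSH), all 10 genes had a negative fold change, from -1.08 for Igf2 (SE 0.78, adjusted p = 0.99995) to -0.03 for Dcn, with a median of -0.38 against -0.00014 over all genes tested, and 0 of the 10 passed an unadjusted p under 0.05, beside 1% of all genes. The fold change of Igf2 rested on WTSH sample 19 and was -0.18 without it. Choroid plexus genes moved the same way, with 0 of 16 higher in KDSH, a median log2 fold change of -3.01 and 6 lower at an unadjusted p under 0.05, beside 0.5% of all genes. Their summed level was 6342 CPM in WTSH sample 19 and 211, 251 and 300 CPM in WTSH samples 2, 23 and 5. In KDSH it was 205 to 318 CPM, a range that holds every WTSH value other than that of sample 19. With Ttr as a covariate the fold change of Igf2 was 0.13 (SE 0.34). Between genotypes in enriched mice (WTEE against KDEE), 5 genes were higher and 5 lower in WTEE, from -0.30 for Igf2 to 0.47 for Ptgds, again with 0 of 10 at an unadjusted p under 0.05, beside 4.99% of all genes. Over the 40 exact permutation tests of single genes in these 4 comparisons, 1 gave an unadjusted p under 0.05, for Col3a1 between KDSH and WTSH (a difference of -0.37 in mean log2 CPM, two-sided exact p = 0.0476, smallest possible 0.00794), and the ranges of its groups overlapped. These comparisons share groups, and the 10 genes were correlated across libraries, so counts of genes in 1 direction are not independent observations.

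The choroid plexus marker Ttr separated the libraries into sets with nothing between them. It was at 2492, 4109, 5108, 5527 and 9045 CPM in KDEE sample 14, WTSH sample 19, WTEE samples 10 and 13 and KDEE sample 12, and between 4.84 and 87.5 CPM in the other 16 libraries, with a gap of 4.83 on the log2 scale. The 5 libraries with high Ttr are the same 5 that were highest for Igf2, Igfbp2, Lum and Col1a2. For the other 6 genes at least 1 of them fell to 9th place or lower, and for Ptgds, Slc22a6, Slc6a13 and Dcn WTEE sample 13 was in 10th, 15th, 14th and 19th place, with Slc22a6 at 2.29 CPM and Slc6a13 at 5.60 CPM. High Ttr thus went with high Igf2 and Igfbp2 in every library and with high transporters in only some.

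**Figure D3:**
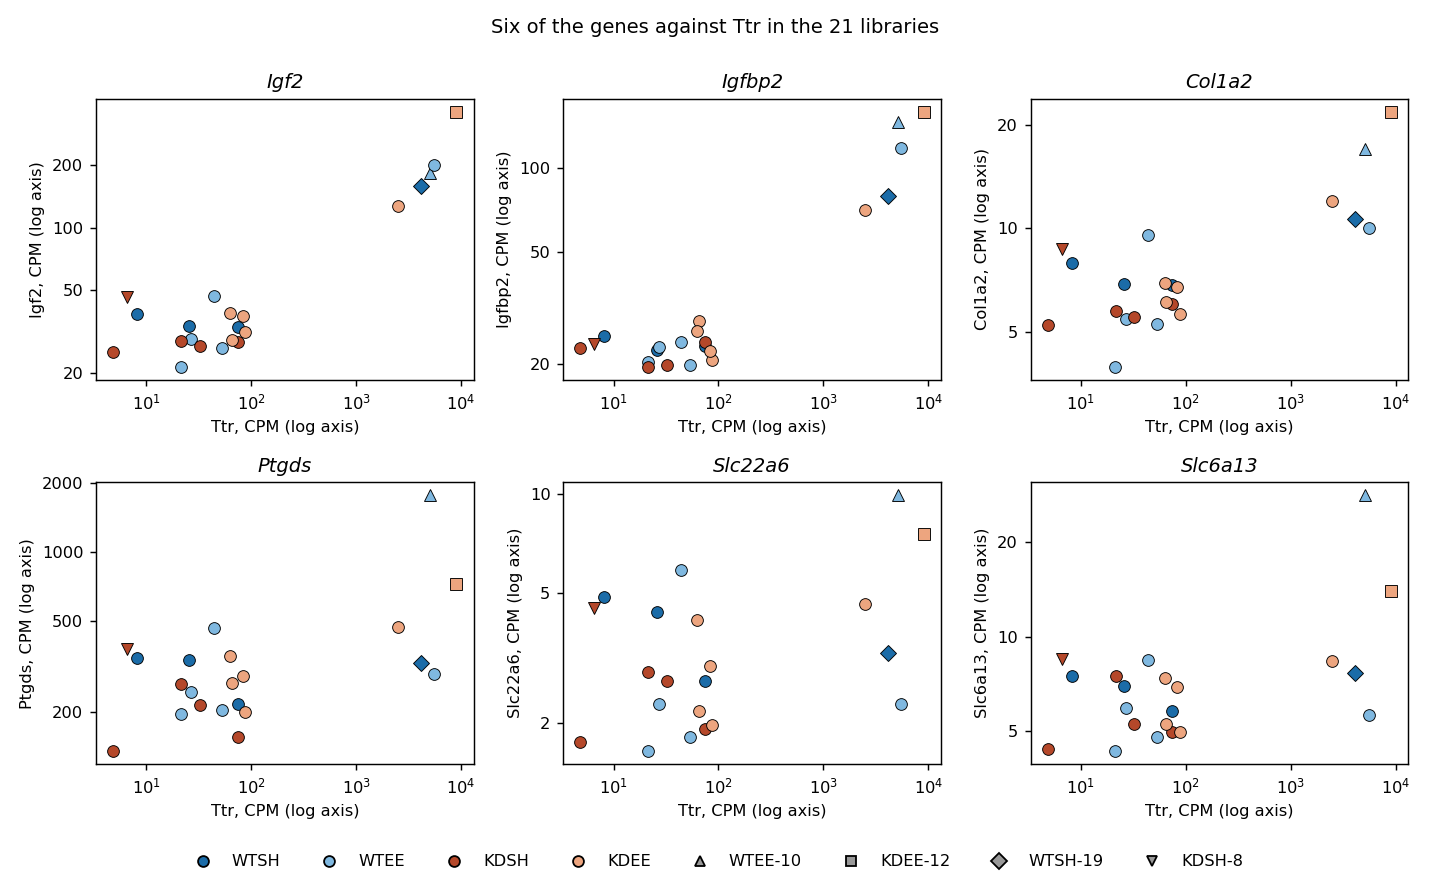
Level of 6 of the genes against that of Ttr in the 21 libraries (CPM, both axes log), coloured by group. For Igf2 and Igfbp2 the 5 libraries with Ttr at 2492 CPM or more lie above all others, whereas for Slc22a6 and Slc6a13 they overlap the 16 libraries with low Ttr.

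Over all 21 libraries, 6 of the 10 genes rose with Ttr within groups. The slope on log2 CPM of Ttr, with group in the model, was positive at an adjusted p under 0.05 (edgeR) for Igf2 (0.34, SE 0.035), Igfbp2 (0.30, SE 0.027), Col1a2 (0.15, SE 0.027), Col3a1 (0.13, SE 0.035), Slc6a13 (0.13, SE 0.039) and Lum (0.11, SE 0.019), beside 6.19% of all 20186 genes tested. The call of Slc6a13 was lost in 14 of the 21 fits that left out 1 library, where its slope ran from 0.053 (without WTEE sample 10) to 0.16. The slope was not called for Ptgds (0.16, adjusted p = 0.0526, but called under 6 alternatives such as DESeq2), Slc22a6 (0.099, adjusted p = 0.209), Col1a1 (0.064, adjusted p = 0.101) and Dcn (0.044, adjusted p = 0.0871). A slope of 1 would be proportional to Ttr. The other choroid plexus genes had a median slope of 0.68, led by Tmem72 (0.98), Slc4a5 (0.90), Kcne2 (0.86) and Aqp1 (0.78). Without WTEE sample 10 the number of genes called was 4 (Lum, Col1a2, Igf2 and Igfbp2), and over all single libraries left out it ran from 4 to 8.

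All 15 choroid plexus genes other than Ttr rose with it, as did 4 of 5 ependymal genes, among them Dynlrb2 (0.17) and Foxj1 (0.13), the master factor of motile cilia. Of 25 further fibroblast matrix genes 10 rose with Ttr and of 23 further meningeal genes 9 did. The largest slopes were those of Col8a1 (0.60), a network-forming collagen, and Pcolce (0.37), an enhancer of procollagen processing, among the matrix genes, and of Slc13a4 (0.37), a sulfate transporter, and Bmp6 (0.18) among the meningeal genes. Of the other genes of the insulin-like growth factor axis 1 of 9 measured rose, Igfbp7 (0.065), and of the vascular genes 1 of 9, Acta2 (0.10), the actin of smooth muscle. None of 3 pituitary, 5 blood, 6 hippocampal neuron and 4 structural RNA genes was called. With the mean of the other choroid plexus genes in place of Ttr, 8 of the 10 genes were called (all but Dcn and Slc22a6), beside 6.51% of all genes tested.

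Within the 16 libraries with low Ttr, none of the genes followed it. The slope was not called for any of the 10 genes, nor for any of the 20135 genes tested (0%, with 154 positive slopes at an unadjusted p under 0.05), and it was negative for 9 of the 10, from -0.13 for Slc22a6 (SE 0.13) to -0.014 for Lum (SE 0.055), and it was 0.062 for Dcn (SE 0.031). Pearson's r with Ttr in these 16 libraries lay between -0.22 and 0.22 and Spearman's rho between -0.25 and 0.37, with permutation p of 0.414 to 0.980 for r and 0.158 to 0.805 for rho. After adjustment over all 20186 genes p was 0.898 to 0.996 for r and 0.999 for rho. Without the 2 libraries farthest from the median of Ttr, r lay between -0.32 and 0.48. The set of 5 libraries with high Ttr is too small for a correlation, and no r was computed over both sets. In these 16 libraries Ttr itself was low, but 10 of 15 choroid plexus genes still rose with it at an unadjusted p under 0.05 and 15 of 15 had a positive slope.

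The genes nevertheless moved with each other in the 16 libraries. Over the 45 pairs Pearson's r had a median of 0.60, and 11 pairs exceeded 0.8. The closest pairs were Col1a2 with Igf2 (r = 0.96), Slc22a6 with Slc6a13 (0.93), Ptgds with Slc22a6 (0.91) and Ptgds with Slc6a13 (0.90). Lum stood apart, with r between -0.11 and 0.10 to the other genes, and Dcn reached at most 0.55. These are descriptions over the same 16 libraries, which share their normalization.

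**Figure D4:**
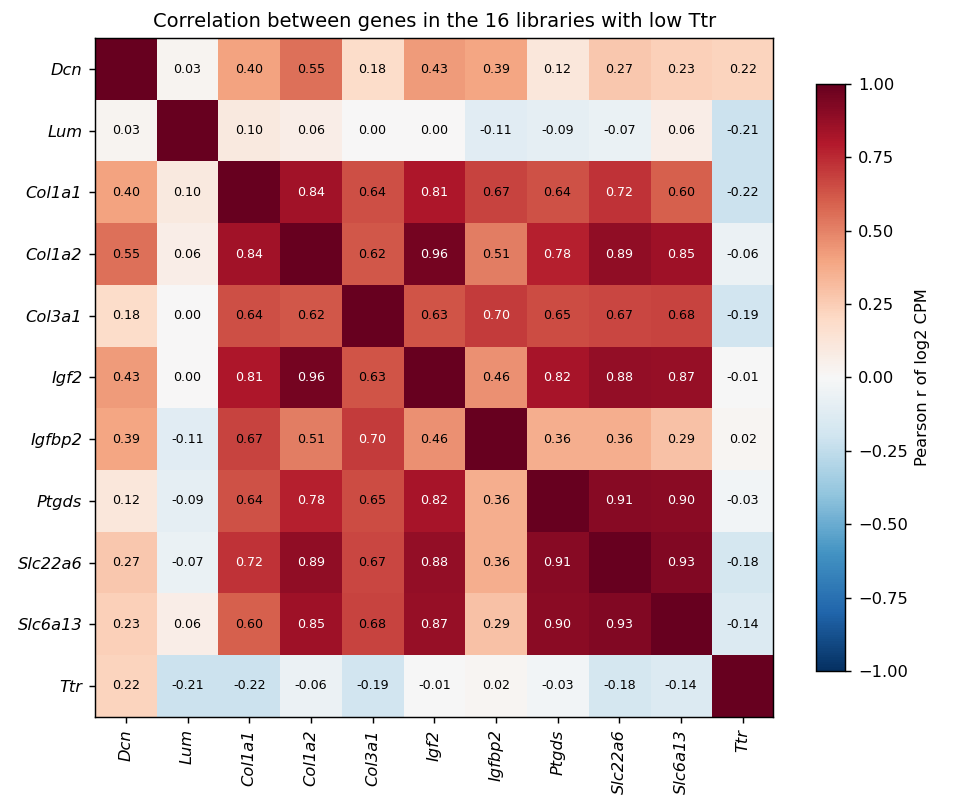
Pearson's r of log2 CPM between the 10 genes and Ttr in the 16 libraries with Ttr at 87.5 CPM or less. Col1a1, Col1a2, Col3a1, Igf2, Ptgds, Slc22a6 and Slc6a13 form a block of high values, from 0.60 to 0.96, and the row of Ttr lies between -0.22 and 0.22.

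Within the 16 libraries the highest values did not go with the highest Ttr. WTEE sample 16 held the highest Col1a1, Col1a2, Igf2, Ptgds and Slc22a6 of the 16 libraries, with Ptgds at 464 CPM and Slc22a6 at 5.85 CPM, while its Ttr was in the middle of the 16, at 43.9 CPM. KDSH sample 8 held the highest Slc6a13, at 8.45 CPM, and was second for Dcn, Col1a1, Col1a2, Igf2 and Ptgds, with Ttr at only 6.56 CPM. WTSH sample 2, with Ttr at 8.19 CPM, was second for Slc22a6 at 4.86 CPM. Other genes were highest where Ttr was higher. Dcn was highest in KDSH sample 1, with Ttr at 74.6 CPM, and Igfbp2 in KDEE sample 15, with Ttr at 65.2 CPM. Col3a1 was highest in KDEE sample 22, with Ttr at 63.0 CPM, and Lum in WTEE sample 11, with Ttr at 53.3 CPM. The summed level of pituitary hormone genes (Gh, Prl and Pomc) was 241 CPM in KDSH sample 8 and 0.832 to 26.6 CPM in the other 20 libraries. It was 1.30 CPM in WTEE sample 16 and 1.48 CPM in WTSH sample 2, below the median of 1.52 CPM over the 21 libraries. The part of these hormone genes in the result was not tested.

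Slc6a13, a transporter of the meninges, was then used as the reference in place of Ttr. It is itself one of the 10 genes and was chosen after its correlations with the others were seen, so the slopes of the other 9 on it restate those correlations, are given as a description and support nothing. Over the 21 libraries the slope was positive at an adjusted p under 0.05 for 9 of the 9 other genes, but so it was for 2700 of all genes tested (13.4%), with 2400 more sloping down. Without WTEE sample 10 the number was 5 of 9, beside 58 of 20077 genes (0.289%). Within the 16 libraries with low Ttr the 4 genes past the threshold were Slc22a6 (slope 1.63, SE 0.17), Ptgds (1.34, SE 0.11), Igf2 (0.85, SE 0.12) and Col1a2 (0.80, SE 0.14), the same 4 that had the highest r with Slc6a13 there, beside 26 of the 20135 genes tested (0.129%). Leaving out WTEE sample 16 brought the number to 2 of 9, and leaving out each of the other 15 libraries gave 3 or 4.

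The 26 genes called on Slc6a13 in these 16 libraries included 8 of the 23 other meningeal genes and 2 of the 25 other matrix genes. The meningeal genes were Slc13a4 (slope 1.69), Slc47a1 (2.11), Slc6a20a (0.89), Crabp2 (2.07), Aldh1a2 (1.34), Foxc2 (2.35), Gjb2 (0.90) and Bmp7 (0.67). They include transporters of the meninges, Aldh1a2, which makes retinoic acid, and Foxc2, a forkhead factor of mesenchyme. The matrix genes were Fmod (2.12) and Omd (2.63), which encode the leucine-rich proteoglycans fibromodulin and osteomodulin. Of the choroid plexus, ependymal, vascular, blood, hippocampal neuron and structural RNA genes 0 were called, and 0 of 3 pituitary genes were called although all 3 had a positive slope at an unadjusted p under 0.05.

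**Figure D5:**
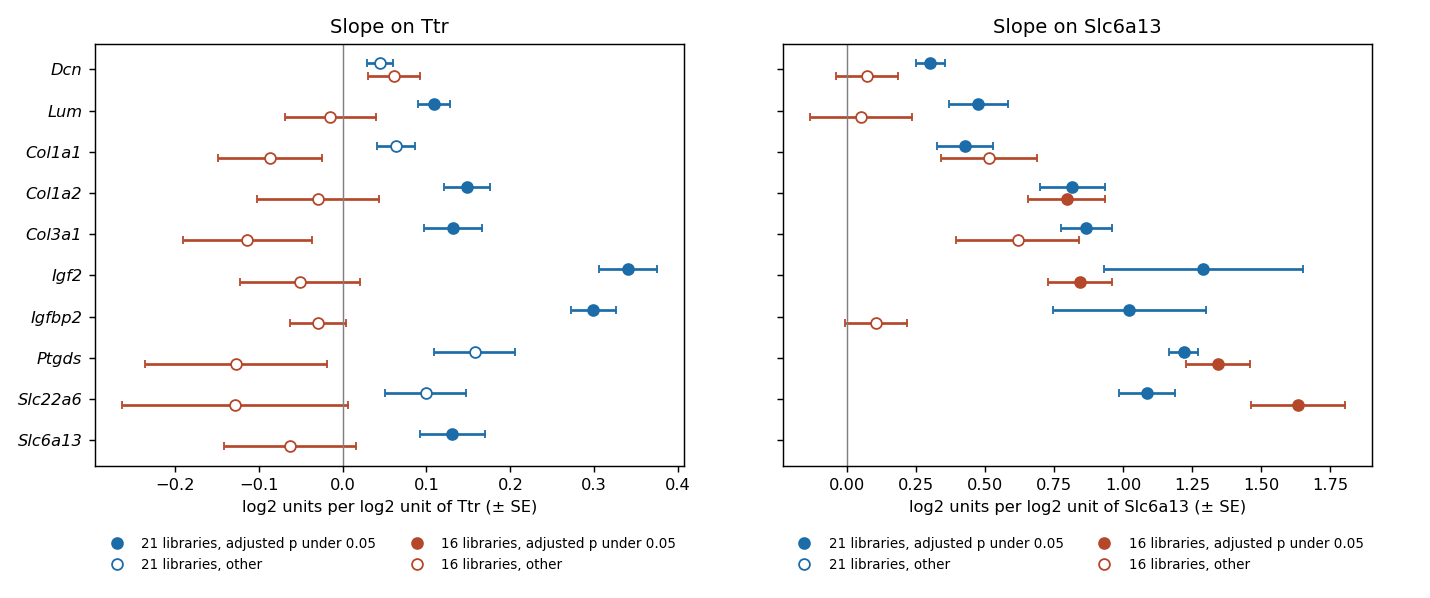
Slope of each gene on log2 CPM of Ttr (left) and of Slc6a13 (right), ± SE, in the 21 libraries and in the 16 libraries with low Ttr, with filled points at an adjusted p under 0.05 (edgeR, group in the model). On Ttr 6 points are filled in the 21 libraries and 0 in the 16, and on Slc6a13 9 and 4.

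Both references were also fitted side by side over the 21 libraries, as a description with the same limit. Beside Slc6a13, the slope on Ttr passed an adjusted p under 0.05 for Igf2 (0.29, SE 0.032), Igfbp2 (0.26, SE 0.026), Col1a2 (0.085, SE 0.019) and Lum (0.078, SE 0.020), 4 of 9 beside 3.8% of all genes, and was 0.0010 (SE 0.013) for Ptgds and -0.038 (SE 0.023) for Slc22a6. Beside Ttr, the slope on Slc6a13 passed for Ptgds (1.22, SE 0.064), Slc22a6 (1.18, SE 0.12), Col3a1 (0.78, SE 0.11), Col1a2 (0.60, SE 0.10) and Dcn (0.27, SE 0.065), 5 of 9 beside 2.82% of all genes.

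WTEE sample 10, the highest library for Slc6a13, Dcn and Col3a1, bore on the second set. Without it, in a fit added after seeing the data, the slope of Dcn on Slc6a13 beside Ttr was 0.10 (SE 0.083) and no longer passed, while Igf2 did (1.06, SE 0.20), so that 5 of 9 passed beside 0.229% of all genes, and Col3a1 kept a slope of 0.86 (SE 0.18). The slopes on Ttr beside Slc6a13 passed without this library for Igf2 (0.28), Igfbp2 (0.26), Col1a2 (0.083) and Lum (0.078), beside 4.58% of all genes.

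The genes outside the 10 whose pattern was most like theirs were sought over the 21 libraries, as a description with the high libraries included. Like the mean z score of the 10 genes were Slc6a20a (r = 0.96), Colec12 (0.96), Islr (0.94), Uaca (0.92) and H2-Eb1 (0.92). Most like Igf2 and like Igfbp2 was the same gene, Pcolce, with r = 0.99 for both, and it ran from 2.74 to 43.5 CPM with its maximum in KDEE sample 12. Most like Slc22a6 was Fmod (0.97), most like Slc6a13 was Aldh1a2 (0.96) and most like Ptgds was Crabp2 (0.96), all of which were highest in WTEE sample 10. Col1a1 was most like Alx4 (0.93), Col1a2 like Bmp7 (0.96), Col3a1 like Colec12 (0.92), Lum like Csrp2 (0.87) and Dcn like Cln3 (0.81).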

How the data were processed

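Hippocampal RNA of 24 mice was sequenced from poly-A libraries (TruSeq v2). The authors checked reads with FastQC 0.11.3, trimmed them with Skewer, aligned them to GRCm38 with STAR 2.5 and counted uniquely aligned, unstranded read pairs per gene symbol with HTSeq 0.6.1p1, and these raw counts were deposited without normalization. Steps before the counts could not be repeated here. Read pairs outside genes, ambiguous or otherwise not counted (13.1% to 50.2% of the pairs listed in a library) were left out. Groups were taken from the labels. WTSH samples 4 and 7 and KDSH sample 6 were left out, as in the study, for ribosomal RNA and a low correlation with their group.

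Counts were tested in R 4.3.3 by edgeR 4.0.16 with its quasi-likelihood F test (TMM, default filter on low counts, 4 groups in 1 model), and calls needed a Benjamini-Hochberg adjusted p under 0.05 plus a change beyond 0.38 on the log2 scale. Slopes on log2 CPM of Ttr or Slc6a13 (prior count 2) were fitted with group in the model, without a threshold on the slope. Correlations with Ttr used 100000 permutations, within sets of at least 6 libraries separated by a gap of more than 2 on the log2 scale. Single genes were also compared with exact permutation tests. Alternatives were DESeq2 1.42.0 (the method of the study), its size factors in edgeR, other filters, all 24 libraries, only the groups compared, no fold threshold, Ttr as a covariate, a prior count of 0.5 and leaving out single libraries. The 10 genes, the other lists and the tests were chosen with earlier results of these data known. Genes outside the 10 were named by rule: list members with the largest slope among those called, and genes with the highest r, and the genes called on Slc6a13 in the 16 libraries were named after their values were seen. Scripts were tested on simulated data. Promoters came from RefSeq (GRCm38.p6) and positions from GENCODE M21. Figures were drawn with matplotlib 3.10.9. P values set differences, slopes or correlations against the spread between these mice. They treat each mouse as independent, although males shared cages and cage was not modelled. Counts are not molecules.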

Additional observations from a re-analysis of the deposited data

Results flagged for a closer look

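Some libraries stood far from the rest of their group, by the gap to the nearest library divided by the range of the group, compared with Dixon's 95% critical value on the CPM scale. Of the 40 pairs of a gene and a group, 13 exceeded it. That critical value assumes a normal spread, and CPM here are skewed towards high values, so the share expected by chance is not known. The genes are correlated, so the 13 come from few libraries.

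In WTEE, sample 10 was high for Slc6a13 (ratio 0.827), Ptgds (0.830), Col3a1 (0.788), Dcn (0.708) and Lum (0.705), and for Ptgds it stood at 1774 CPM against 464 CPM in the next library. In KDEE, sample 12 was high for Igf2 (0.705), Col3a1 (0.699) and Igfbp2 (0.638), and for Ttr (0.730). In WTSH, sample 19 was high for Igf2 (0.959), Igfbp2 (0.954) and Ttr (0.984). In KDSH, sample 8 was high for Igf2 (0.848) and Col1a2 (0.779), at 46.7 and 8.74 CPM. A single low value was found, Ptgds in WTSH sample 5 (0.856), at 216 CPM.

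10 values in the 3 libraries left out of the comparisons lay above every kept library of their group, with all 24 libraries scaled together. In KDSH sample 6 these were Ptgds (429 CPM), Igf2 (48.2), Igfbp2 (29.3), Col1a2 (9.81), Col1a1 (9.26), Slc6a13 (9.23), Slc22a6 (4.86) and Col3a1 (1.28). In WTSH sample 7 it was Col1a1 (8.14 CPM) and in WTSH sample 4 Col3a1 (1.63 CPM).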

How the results depend on the processing

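No paired analysis was possible because sample numbers run from 1 to 24 without repeats between groups. The number of the 10 genes called between groups was 0 in all 5 comparisons under every alternative run and with each library left out. The log2 fold change of Igf2 reversed with Ttr as a covariate, to -0.42 for KDEE against KDSH, 0.13 for KDSH against WTSH and 0.14 for the interaction, and that of Igfbp2 for KDEE against KDSH to -0.39. With single libraries left out these 4 values ran from 0.76 to 1.94, from -1.31 to -0.18, from -1.84 to -0.40 and from 0.62 to 1.49. The fold change of Ptgds ran from -0.12 to 0.98 for WTEE against WTSH and from -0.45 to 0.75 for WTEE against KDEE, and both lowest values are those without WTEE sample 10.

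The number of genes following Ttr was 0 in the 16 libraries with low Ttr, and stayed within 1.5 times of 6 under the other 9 alternatives. In those 16 libraries the slopes reversed, to -0.014 (Lum), -0.086 (Col1a1), -0.029 (Col1a2), -0.11 (Col3a1), -0.051 (Igf2), -0.029 (Igfbp2), -0.13 (Ptgds), -0.13 (Slc22a6) and -0.063 (Slc6a13), and beside Slc6a13 that of Slc22a6 was -0.038. Fewer libraries and a smaller range of Ttr remain there by construction. The number following the choroid plexus mean was 0 in these libraries, against 8. Leaving out single libraries gave 4 to 8 genes on Ttr, and the slope of Slc6a13 lost its call in 14 of 21 of these fits. On Slc6a13 the number was 4 in the 16 libraries and 5 with Ttr as a covariate, against 9, and ran from 5 (without WTEE sample 10) to 9 with single libraries left out, and from 2 to 4 within the 16. No member's correlation with Ttr was called with a prior count of 0.5 or in all 24 libraries, and 1 exact test passed on both scales. Ptgds, not called on Ttr, was called under 6 alternatives. Col3a1, at 33 counts or more, had the lowest counts of the 10 genes.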

Other observations

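12 of the 26 genes called on Slc6a13 in the 16 libraries with low Ttr belong to none of the lists, and they were looked at after their values were seen. The steepest slopes among them were those of H2-Q1 (3.85, SE 0.64), Cdh1 (3.05, SE 0.43), which encodes E-cadherin, and Prg4 (3.01, SE 0.26), which encodes lubricin. Fgfbp1 (2.20), Wnt6 (2.15), Fam180a (2.02), F13a1 (1.14), which encodes a chain of coagulation factor XIII, and Ahnak2 (1.03) followed. Myoc (0.87), Mrc2 (0.78), a collagen receptor, Colec12 (0.66), a scavenger receptor, and Fbln5 (0.55), a protein of elastic fibres, had the shallowest. Adjusted p (edgeR) over these 12 genes ran from 9.06e-06 for Prg4 to 0.0300 for Fbln5. Mean levels over the 21 libraries were 0.34 to 0.95 CPM for H2-Q1, Wnt6, Fgfbp1, Fam180a and Cdh1, and up to 23.8 CPM for Myoc.

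Blood genes were higher in enriched mice at an unadjusted p under 0.05, 5 of 5 in each genotype, beside 3.95% of all genes in WT mice and 5.64% in MSK1 KD mice, and 0 were called. Their summed level was 56.1 to 72.8 CPM in WTSH, 56.2 to 392 CPM in WTEE, 37.0 to 77.5 CPM in KDSH and 72.6 to 242 CPM in KDEE, and 0 of 5 rose with Ttr or with Slc6a13 over the 21 libraries.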
